A study of Mus musculus with 12 samples.

Results

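The genes described here are 2 muscle ubiquitin ligases, Fbxo32 (atrogin-1, also called MAFbx) and Trim63 (MuRF1), the FoxO transcription factors Foxo1, Foxo3 and Foxo4, and the Krüppel-like factor Klf15. They were picked by gene symbol, and all 6 were found among the 23446 genes of the deposited expression table. RNA was taken from C2C12, a mouse myoblast (muscle precursor) cell line in wide use. Cells in growth medium (GM) or differentiation medium (DM) received acetoacetate (AA), a ketone body, or PBS, the control, with 12 h of AA treatment, and there were 3 libraries in each group: PBS in growth medium (GM-PBS), AA in growth medium (GM-AA), and likewise DM-PBS and DM-AA. All groups share the same line, and the stated aim concerned the response to AA of proliferating and of differentiating cells. Nothing in the labels ties the 3 libraries of a group to separate cultures. The p-values therefore reflect the spread among libraries, part or all of which may be technical.

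As background, skeletal muscle that is unused, starved or exposed to glucocorticoids breaks down its own protein, largely through the ubiquitin and proteasome system. Fbxo32 and Trim63 are the ligases whose transcripts rise most reliably in such muscle, and both are targets of FoxO factors, which insulin and IGF signalling holds out of the nucleus through phosphorylation by Akt. Klf15 is a target of the glucocorticoid receptor that drives genes of branched-chain amino acid breakdown and can act on the same ligases. Most of this control acts on the FoxO proteins, so transcript levels do not show FoxO activity.

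Read totals ran from 7959519 to 9893564 per library, and 12230 genes had enough reads to be tested. Fold changes are on the log2 scale with a standard error (SE) from edgeR's quasi-likelihood test, and a gene "passed the test" where its p, adjusted by Benjamini and Hochberg across the tested genes, was under 0.05. Levels are in RPKM (reads scaled by library size and gene length) unless CPM (reads scaled by library size alone) is named. Summed levels of 7 myoblast marker genes were 2400 to 2480 CPM with PBS and 2750 to 2840 with AA in GM. In DM they were 2770 to 2800 with PBS and 3080 to 3260 with AA. Most of that sum was Des, at 1451 to 1789 CPM (group means). In each medium 4 of the 7 passed as higher with AA and 1 as lower. Over all tested genes 9.76% were higher and 11.0% lower in GM, and 12.6% and 13.8% in DM. Summed levels of 5 endothelial markers ran from 0.735 to 2.44 CPM. Markers of differentiating myocytes moved with AA: 6 such genes summed to 103 to 108 CPM with PBS and 121 to 144 with AA in GM, and to 138 to 148 with PBS and 229 to 285 with AA in DM. The summed level of 7 osteoblast and chondrocyte markers moved the other way, from 5070 to 5310 CPM in GM-PBS down to 2510 to 2720 in GM-AA, and from 4410 to 4710 in DM-PBS down to 1740 to 1960 in DM-AA. Nearly all of that sum was Spp1 (osteopontin), with group means of 4907 CPM (PBS) and 2418 (AA) in GM and 4367 (PBS) and 1667 (AA) in DM. Sp7, Bglap, Col2a1 and Acan stayed under 1 CPM, but Runx2 ran from 85.62 to 101.6 CPM and Sox9 from 80.6 to 161.9 (group means). Log2 changes with AA were -0.56 (GM) and -0.70 (DM) for Sox9 and -0.19 and -0.18 for Runx2, all past the test. The Runx2 calls were lost with DESeq2 (adjusted p = 0.0503 in GM and 0.0644 in DM). Adipocyte markers summed to 18.8 to 30.4 CPM over the libraries, with Plin1 at 0, epithelial markers to 27.4 to 87.6 CPM, nearly all of it Krt19 with Epcam at 0 to 0.0339 CPM (group means), and immune markers to 12.6 to 20.9 CPM. The part of any of these in the results below was not tested, and in bulk RNA a change in the share of a cell type and a change of RNA per cell cannot be told apart.

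The members differed widely in level. In GM-PBS, the mean level of Fbxo32 was above 81.5% of the tested genes, that of Foxo3 above 75.7%, of Foxo1 above 51.5% and of Foxo4 above 46.9%. Trim63 stood above only 0.572% of them, and Klf15 had too few reads to be tested. Levels are compared between genes only in RPKM, which rests on the gene lengths in the table; for Foxo3 that length is 2889 bases, 38.2% of the exon bases of its gene in GENCODE M21.

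**Figure D1:**
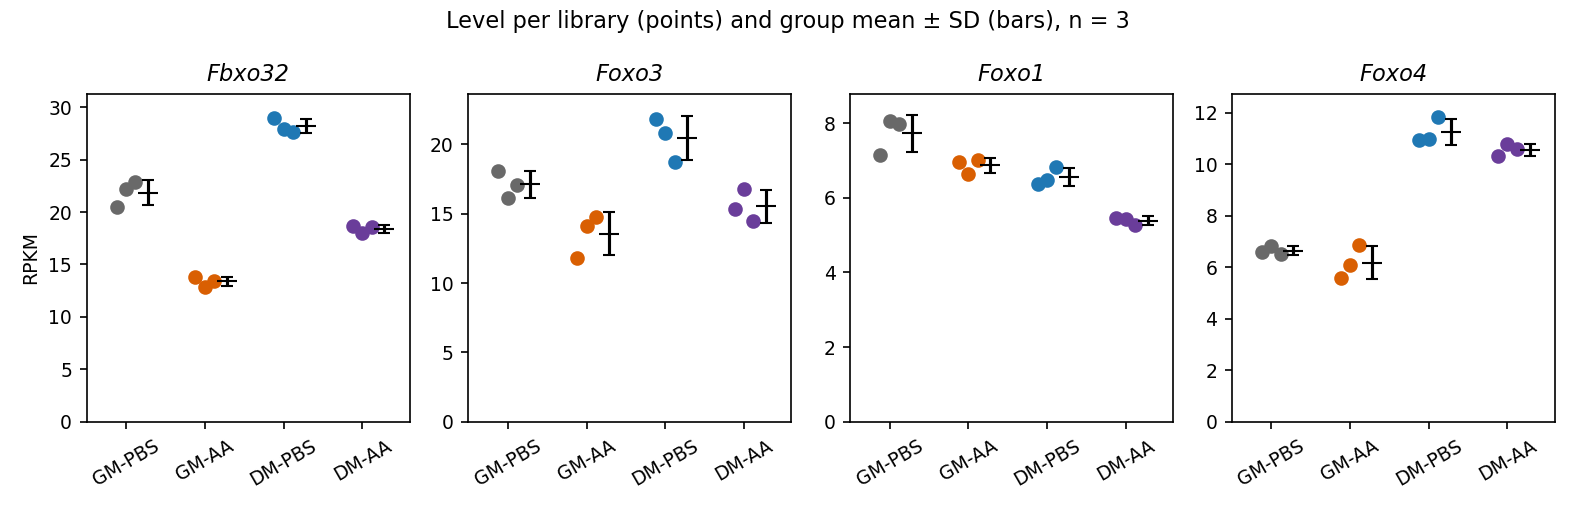
Level in RPKM (vertical axes, each from 0) of Fbxo32, Foxo3, Foxo1 and Foxo4 in the 12 libraries; points are libraries, and bars give the mean and SD of the 3 libraries of a group. Fbxo32 lies at 12.9 to 13.8 in GM-AA against 20.5 to 22.8 in GM-PBS, and Foxo4 parts by medium rather than by AA.

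With AA, Fbxo32, Foxo1 and Foxo3 fell in both media, and Foxo4 did not pass the test in either. Trim63 passed as higher in both from very few reads, but it entered the test only through AA libraries, so its place in these counts supports nothing. The members were chosen with earlier results of these data known, so the counts of members are a description only. In GM 4 of the 5 tested members passed, 3 lower and 1 higher, where 20.7% of all tested genes passed (11.0% lower and 9.76% higher); DESeq2 called 2 of the 4 to which it gave an adjusted p, without Foxo1. In DM 4 of 5 passed as well, 3 lower and 1 higher, against 26.4% of all tested genes (13.8% lower and 12.6% higher), and DESeq2 called 4 of 5. No difference between the media in the response to AA was detected for the 5: its test passed for 0 of 5 members by edgeR, 0 at an unadjusted p under 0.05 and 0 of 4 by DESeq2, against 5.24% of all tested genes (2.58% higher and 2.67% lower). Beside statements on whether groups overlap, 34.0% of tested genes had non-overlapping AA and PBS libraries in GM and 40.1% in DM.

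**Figure D2:**
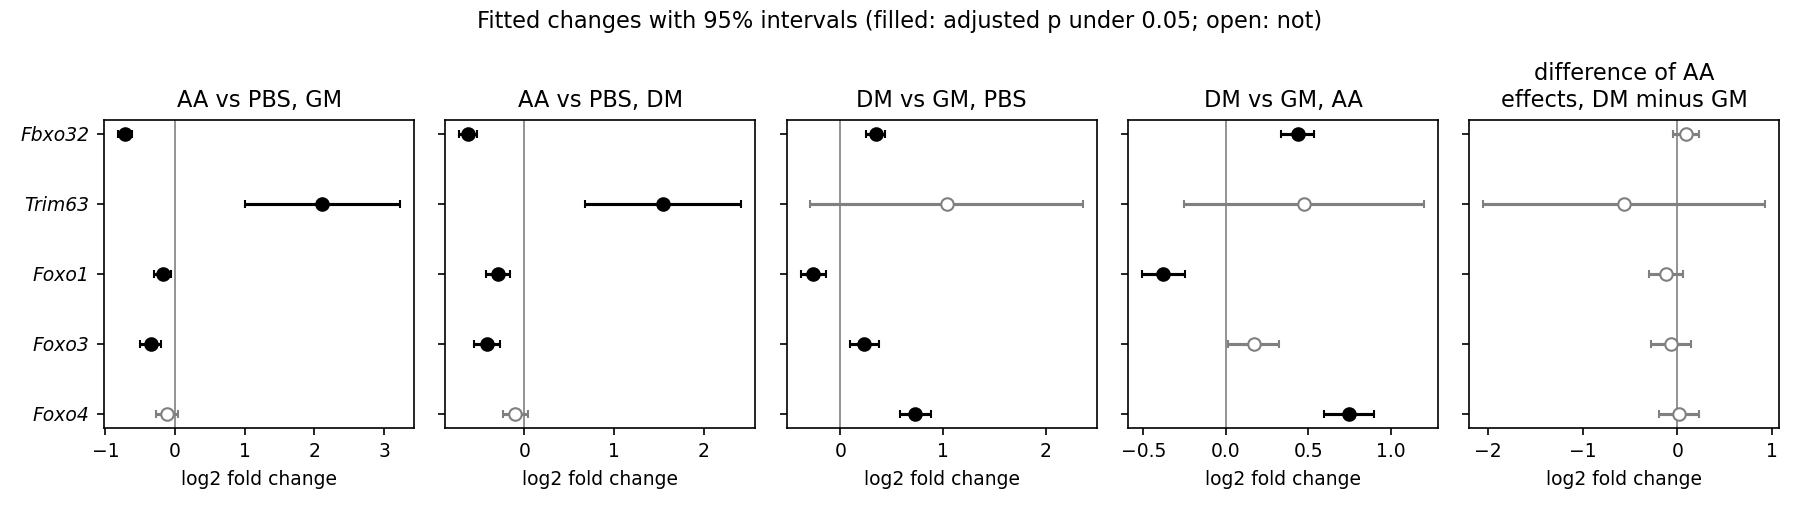
Fitted log2 fold changes (horizontal axes, whose scales differ between panels) of the 5 tested members in 5 comparisons, with 95% intervals; filled points passed the test and open points did not. Intervals of Trim63 are wide, from 1.00 to 3.23 for AA in GM, and all 5 intervals for the difference of the AA effects include 0.

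Fbxo32 encodes the F-box protein of an SCF ubiquitin ligase that marks MyoD and the translation factor eIF3-f, among other proteins, for degradation. It had many reads: 1970, 1980 and 2073 in the GM-PBS libraries, 1312, 1208 and 1253 in GM-AA, 3072, 2434 and 2357 in DM-PBS, and 1624, 1565 and 1650 in DM-AA. Every AA library lay below every PBS library of its medium.

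In RPKM, the mean level of Fbxo32 was 21.8 ± 1.19 (SD, n = 3) in GM-PBS and 13.4 ± 0.444 in GM-AA, a fitted log2 change of -0.72 ± 0.049 (SE), or 0.608 of the control level (adjusted p = 9.22e-13, edgeR). In DM it was 28.2 ± 0.709 with PBS and 18.4 ± 0.385 with AA, a change of -0.63 ± 0.048, or 0.647 of control (adjusted p = 3.04e-12, edgeR). In GM its p was the 10th smallest among the 12230 genes, and its change the 157th lowest. In DM its p ranked 52nd and its change 347th in the same way. The difference between the AA effects in the media was 0.089 ± 0.069 with a 95% interval of -0.0501 to 0.229 (adjusted p = 0.569, edgeR).

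Medium moved Fbxo32 as well. It was higher in DM than in GM by 0.34 ± 0.047 with PBS (adjusted p = 1.56e-07) and by 0.43 ± 0.050 with AA (adjusted p = 5.55e-09, edgeR), and libraries of the media did not overlap in either case. From high to low, the groups ranked DM-PBS, GM-PBS, DM-AA and GM-AA, and no neighbouring groups in that order overlapped.

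The libraries also differed by the GC content of the genes, in step with AA. Spearman's rho between a gene's GC content and its deviation from its mean, over 12143 genes, was 0.00528 to 0.211 with PBS and -0.177 to -0.115 with AA in GM, and 0.127 to 0.150 with PBS and -0.148 to -0.0611 with AA in DM. Fbxo32 has a GC content of 45.8%. Among 1211 tested genes within 1 percentage point of it, the median AA change was 0.03 in GM and 0.04 in DM, and 0.991% and 2.06% of them fell further than Fbxo32. After removal of each library's GC and length trend, Fbxo32 changed by -0.74 in GM and -0.64 in DM.

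Trim63 encodes a RING-finger ligase of the sarcomere that marks myosin heavy chains and other thick-filament proteins. Its promoter is known for a FoxO element next to an element of the glucocorticoid receptor, and it is shown here for that reason, ahead of the counts. The 250 bases before the annotated RefSeq start are printed 5′ to 3′ on the gene's strand, on GRCm38.p6 at chr4:134314870-134315119 (plus strand). Capitals mark matches to a FoxO element (GTAAACA, searched on both strands) and to the hexamer that forms each arm of a glucocorticoid response element (AGAACA, searched on both strands).
Trim63: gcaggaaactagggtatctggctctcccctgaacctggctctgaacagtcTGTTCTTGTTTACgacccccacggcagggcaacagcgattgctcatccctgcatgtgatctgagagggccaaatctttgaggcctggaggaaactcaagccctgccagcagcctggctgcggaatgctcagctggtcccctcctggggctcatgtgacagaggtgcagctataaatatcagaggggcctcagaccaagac

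The hexamer match (TGTTCT, the opposite strand) spans 200 to 195 bases before the start and the FoxO match (TGTTTAC, the opposite strand) 194 to 188, so they touch without overlapping. Of 32851 RefSeq promoter windows of this length, 3.17% hold the FoxO element, 16.08% the hexamer and 0.691% both. A match of letters is a description of the sequence and does not show that a factor was bound in these cells.

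Trim63 had few reads in every library. The GM-PBS libraries held 3, 1 and 2 reads, GM-AA 9, 11 and 8, DM-PBS 4, 7 and 2, and DM-AA 8, 15 and 14. AA libraries lay above the PBS libraries of their medium without overlap, though the gap in DM is a single read, between 7 and 8.

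Summed over libraries, 28 reads in GM-AA stood against 6 in GM-PBS, a ratio of 4.54 per library size with a 95% exact interval of 1.84 to 13.4 that covers counting error only. In DM, 37 reads stood against 13, a ratio of 2.99 (1.55 to 6.13). The fitted log2 change was 2.11 ± 0.55 in GM and 1.55 ± 0.43 in DM (adjusted p = 0.00516 and 0.00641, edgeR). An exact two-sided permutation test on CPM gave p = 0.1 in each medium, the smallest that 20 splits of 3 against 3 can give. Groups that do not overlap always give this value, so it adds nothing to the counts.

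The call on Trim63 is less firm than these p-values. It passed the read filter (1.2 CPM, about 10 reads, in 3 libraries) through 1 GM-AA and 2 DM-AA libraries and no PBS library, so passing the filter itself favoured a higher level with AA. DESeq2 gave it no adjusted p in GM (unadjusted p = 0.00374) and an adjusted p of 0.045 in DM. Leaving out 1 library gave changes in DM of 1.27 (adjusted p = 0.041, edgeR) to 2.11, the lowest without DM-PBS library 3 (2 reads) and the highest without DM-PBS library 2 (7 reads). Between the media, Trim63 did not pass with PBS (1.03 ± 0.65, adjusted p = 0.185) or with AA (0.47 ± 0.36, adjusted p = 0.28, edgeR), and the AA effects differed by -0.56 ± 0.73 (95% interval -2.05 to 0.927).

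**Figure D3:**
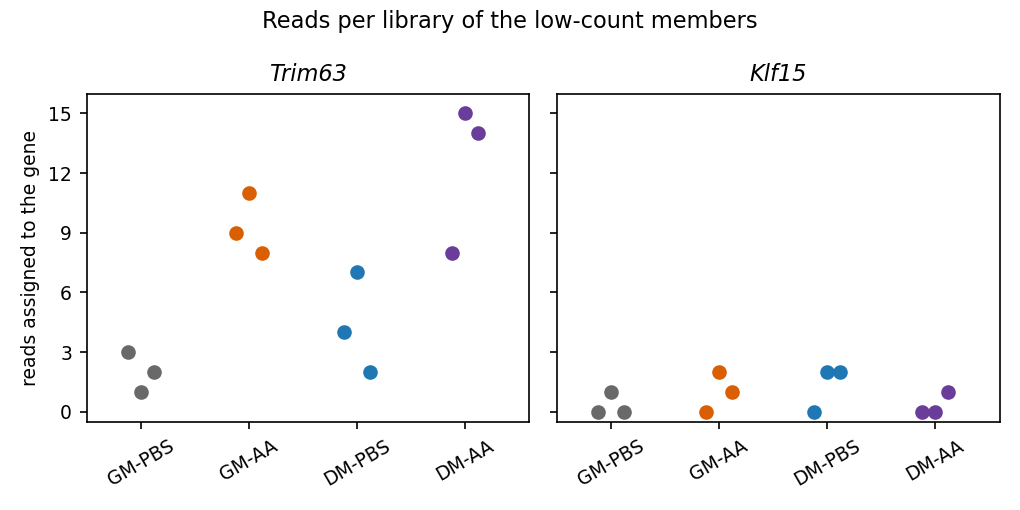
Reads assigned to Trim63 and Klf15 in each of the 12 libraries (vertical axis, points are libraries). Trim63 runs from 1 to 15 reads and is higher in AA libraries of each medium; Klf15 has 0 to 2 reads throughout.

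Foxo3, the FoxO factor best known for driving Fbxo32 and autophagy genes in atrophying muscle, was the highest FoxO transcript in every group by the gene lengths of the table. That order turns on the lengths: with GENCODE M21 exon bases in their place, a choice made after seeing the data, Foxo3 stood at 6.53 RPKM and Foxo4 at 6.03 in GM-PBS, and Foxo4 was the higher in the other groups (10.2 against 7.81 in DM-PBS), though the libraries' values for these genes overlapped in both GM groups. By the table's lengths the Foxo3 level was 18.1, 16.2 and 17.1 RPKM in GM-PBS, 11.8, 14.1 and 14.8 in GM-AA, 21.8, 20.8 and 18.7 in DM-PBS, and 15.3, 16.8 and 14.5 in DM-AA. AA libraries lay below PBS libraries in both media without overlap.

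Foxo3 fell with AA by 0.35 ± 0.074 in GM and 0.41 ± 0.072 in DM (adjusted p = 0.000839 and 3.75e-05, edgeR). The AA effects differed by -0.067 ± 0.10 (95% interval -0.278 to 0.144). With PBS it was 0.23 ± 0.071 higher in DM than in GM (adjusted p = 0.00529), a call lost without DM-PBS library 1 (0.181, adjusted p = 0.0567, edgeR). With AA the difference between media, 0.17 ± 0.076, did not pass (adjusted p = 0.0623) and the groups overlapped. It passed without GM-AA library 3 (0.24, adjusted p = 0.0168) or without DM-AA library 3 (0.219, adjusted p = 0.0312, edgeR). Foxo3 has a GC content of 53.2%, where 8.29% of 1315 similar genes fell further in GM and 7.38% in DM, and after removal of the GC and length trend it changed by -0.32 and -0.38.

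Foxo1, which acts on both ligases, was the member whose medium effect ran opposite to that of Foxo3 and Foxo4. Its level was 7.15, 8.05 and 7.99 RPKM in GM-PBS, 6.96, 6.64 and 7.00 in GM-AA, 6.38, 6.48 and 6.84 in DM-PBS, and 5.46, 5.44 and 5.26 in DM-AA. The gap between GM-PBS and GM-AA is narrow, between 7.15 and 7.00, whereas the DM groups stand well apart.

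Foxo1 fell with AA by 0.30 ± 0.065 in DM (adjusted p = 0.000688) and by 0.18 ± 0.060 in GM (adjusted p = 0.0305, edgeR). The GM call does not hold throughout: leaving out GM-AA library 1 or 2 gave adjusted p = 0.0614 and 0.108, and leaving out GM-PBS library 2 or 3 0.132 and 0.126 (edgeR), with changes of -0.18 to -0.15. DESeq2 gave adjusted p = 0.0939 in GM. The AA effects differed by -0.12 ± 0.088 (95% interval -0.296 to 0.0631). Foxo1 was lower in DM than in GM, by 0.26 ± 0.061 with PBS (adjusted p = 0.000452) and by 0.38 ± 0.064 with AA (adjusted p = 6.86e-06, edgeR). The GM-AA and DM-PBS libraries, which share neither medium nor treatment, overlapped. Exons of Gm20402 on the opposite strand cover 7.8% of Foxo1, and those of Gm15943 cover 2.7% of Fbxo32; the strand of the libraries is not given in the sources used here.

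Foxo1 and Foxo3 fell together with AA, so their promoter windows are shown beside that of Trim63, on GRCm38.p6 at chr3:52268087-52268336 (plus strand) and chr10:42276696-42276945 (minus strand, printed on the gene's strand). Neither holds the FoxO element or the hexamer, so neither has capitals. The windows differ in base composition: 56.0% GC with 20 CpG pairs in Foxo1, 76.4% with 31 in Foxo3, and 56.8% with 4 in Trim63. RefSeq windows matched 4 of the 6 members, Trim63, Foxo1, Foxo3 and Klf15.
Foxo1: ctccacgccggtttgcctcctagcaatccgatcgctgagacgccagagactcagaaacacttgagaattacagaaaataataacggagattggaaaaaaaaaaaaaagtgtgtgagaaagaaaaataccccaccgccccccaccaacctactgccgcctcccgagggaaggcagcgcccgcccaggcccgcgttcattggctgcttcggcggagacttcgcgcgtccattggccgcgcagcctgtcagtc
Foxo3: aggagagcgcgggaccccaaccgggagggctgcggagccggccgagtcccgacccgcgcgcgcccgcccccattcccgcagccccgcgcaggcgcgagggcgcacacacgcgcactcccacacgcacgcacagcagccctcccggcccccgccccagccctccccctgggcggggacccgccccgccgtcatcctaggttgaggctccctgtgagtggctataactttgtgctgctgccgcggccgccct

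Foxo4, a FoxO factor that binds the same DNA element, followed the medium. Its level was 6.58, 6.83 and 6.52 RPKM in GM-PBS, 5.59, 6.06 and 6.85 in GM-AA, 10.9, 11.0 and 11.8 in DM-PBS, and 10.3, 10.8 and 10.6 in DM-AA. All DM libraries lay above all GM libraries.

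The rise of Foxo4 in DM was 0.73 ± 0.073 with PBS (adjusted p = 1.97e-10) and 0.75 ± 0.074 with AA (adjusted p = 2.28e-10, edgeR), 1.66 and 1.68 times the GM level. With AA, its changes were -0.12 ± 0.080 in GM (95% interval -0.279 to 0.0455, adjusted p = 0.325) and -0.10 ± 0.068 in DM (-0.239 to 0.037, adjusted p = 0.293, edgeR). The GM groups overlapped, and the DM groups did not. The AA effects of Foxo4 differed by 0.015 ± 0.105 (95% interval -0.197 to 0.228), a value whose sign changed on leaving out any of 5 libraries.

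Between the media, 4 of the 5 tested members passed with PBS (3 higher and 1 lower in DM), where 54.4% of all tested genes passed (27.0% higher and 27.4% lower), and 3 of 5 with AA (2 higher and 1 lower), where 52.2% did (25.9% higher and 26.3% lower). DM and GM libraries did not overlap for 59.4% of tested genes with PBS and for 57.4% with AA. Here, too, the counts of members are a description only. These comparisons share libraries with the AA comparisons, so their values are set side by side without an overlap or correlation.

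Foxo6, the remaining FoxO gene, which is not among the 6, was low but rose with AA. It held 55, 38 and 61 reads in GM-PBS, 74, 82 and 86 in GM-AA, 91, 86 and 84 in DM-PBS, and 143, 164 and 169 in DM-AA. Its log2 change with AA was 0.61 ± 0.16 in GM (adjusted p = 0.00451) and 0.93 ± 0.12 in DM (adjusted p = 3e-07, edgeR). Its GC content of 69.1% is among the highest of the tested genes, and only 12 tested genes lay within 1 percentage point of it. After that trend was removed, Foxo6 changed by 0.76 and 1.08.

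The make-up of the FoxO family is given here as shares. Of the summed RPKM of Foxo1, Foxo3, Foxo4 and Foxo6, Foxo3 took 51.8% in GM-PBS, 46.7% in GM-AA, 50.0% in DM-PBS and 42.6% in DM-AA. Foxo6 took 4.61%, 8.13%, 6.35% and 13.6% in the same order. Foxo1 took 23.4% and 23.8% in GM but 16.1% and 14.8% in DM, and Foxo4 20.1% and 21.3% in GM but 27.5% and 29.0% in DM. Libraries of GM and DM did not overlap in the share of Foxo1 or of Foxo4. These shares use the table's lengths: with GENCODE exon bases Foxo3 took 34.4%, 29.6%, 31.6% and 24.9% and Foxo4 31.8%, 32.0%, 41.2% and 40.3%, above Foxo1 in each group. The summed level of the 4 genes was 33.0 ± 0.696 RPKM in GM-PBS, 29.0 ± 2.35 in GM-AA, 40.9 ± 0.696 in DM-PBS and 36.4 ± 1.51 in DM-AA (SD, n = 3). No test was attached to these shares.

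**Figure D4:**
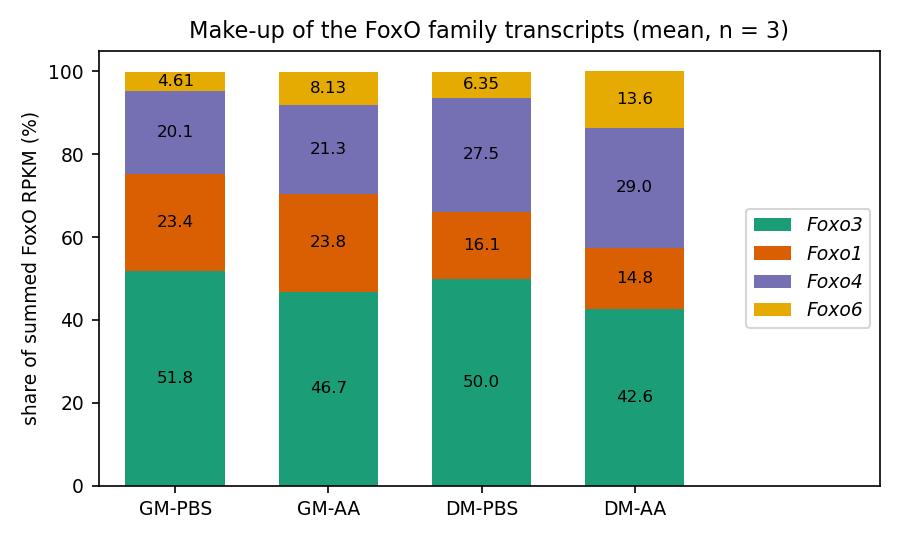
Share of the summed RPKM of 4 FoxO genes (vertical axis, percent) taken by each gene, as the mean of 3 libraries per group, by the gene lengths of the table. At these lengths Foxo3 is the largest part of each bar, Foxo4 exceeds Foxo1 only in DM, and Foxo6 reaches 13.6% in DM-AA.

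Fbxo32 was also set against its regulators within each library, with no test. The ratio of Fbxo32 to Foxo1 in RPKM was 2.83 ± 0.061 in GM-PBS, 1.95 ± 0.0286 in GM-AA, 4.30 ± 0.248 in DM-PBS and 3.42 ± 0.113 in DM-AA (SD, n = 3), and no groups overlapped. The ratio of Fbxo32 to Foxo3 was 1.28 ± 0.128, 0.997 ± 0.148, 1.38 ± 0.0815 and 1.19 ± 0.11 in the same order. Its GM-PBS and GM-AA libraries overlapped, at 1.13 to 1.37 and 0.911 to 1.17. Both ratios use the table's lengths, which are 99.4% of the GENCODE exon bases for Fbxo32, 64.1% for Foxo1 and 38.2% for Foxo3. The size of a ratio therefore turns on the lengths, and only its changes between groups do not.

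Klf15 was close to absent. The GM-PBS libraries held 0, 1 and 0 reads, GM-AA 0, 2 and 1, DM-PBS 0, 2 and 2, and DM-AA 0, 0 and 1, or 1, 3, 4 and 1 reads per group. No difference was detectable at this depth, and no fold is given, since every library lies under the 3 reads that a count of 0 allows. Of 16 other Klf genes, 12 were tested. Unlike Klf15, Klf6 was well read at 333.8 to 418.4 CPM (group means), Klf13 at 140.4 to 183.4 and Klf4 at 129.1 to 162.6, while Klf14 and Klf17 had 0 reads.

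Of those 12 Klf genes, 1 rose and 1 fell with AA in GM, beside 9.76% and 11.0% of all tested genes. In DM 2 rose and 6 fell, beside 12.6% and 13.8%. Klf9, a Klf gene that responds to glucocorticoids, fell with AA in DM by 0.73 ± 0.077 (adjusted p = 4.04e-09), and its change in GM was -0.14 (adjusted p = 0.11, edgeR). The DM effect was more negative by 0.59 ± 0.10 (adjusted p = 0.000221, edgeR). Klf4 rose in GM by 0.26 ± 0.050 (adjusted p = 0.000241), and the rise in DM was 0.17 (adjusted p = 0.0136, edgeR). Counts of 1 or 2 in this list are not stable: the fall in GM (Klf16) was lost on leaving out any of 4 libraries (GM-PBS 1 or 2, GM-AA 2 or 3). It was also lost with DESeq2 (adjusted p = 0.0901) and after removal of the GC and length trend (adjusted p = 0.214, edgeR). No gene rose in DM without DM-AA 2, DM-PBS 1 or DM-PBS 3.

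Genes of amino acid breakdown linked to Klf15 moved both ways. In GM 3 of 12 tested were higher and 2 lower, beside 9.76% and 11.0% of all tested genes. In DM 1 was higher and 4 lower, beside 12.6% and 13.8%. Without DM-PBS library 3 2 were higher in DM. Ivd, which acts in leucine breakdown, fell by 0.39 ± 0.099 in GM and by 0.34 ± 0.085 in DM (adjusted p = 0.00454 and 0.00264, edgeR). Gpt2, an alanine aminotransferase, rose by 0.45 ± 0.067 in DM (adjusted p = 3.03e-06) and by 0.25 in GM (adjusted p = 0.0168, edgeR). Bckdha fell by 0.94 ± 0.14 in GM (adjusted p = 6.54e-06), with a DM change of -0.84 ± 0.11 (adjusted p = 3.55e-07, edgeR), but exons of B3gnt8 on the opposite strand cover 61.7% of it.

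Targets that FoxO factors are known to act on leaned lower with AA. Of 24 such genes, all tested, 8 fell and 4 rose in GM (median -0.07, against -0.00336 over all tested genes), and 13 fell and 1 rose in DM (median -0.17, against 0.00213). Over all tested genes 11.0% fell and 9.76% rose in GM, and 13.8% fell and 12.6% rose in DM. Of the 24, 8 fell in both media and 1 rose in both, where 788 of the 12230 tested genes fell in both and 553 rose in both. The list was chosen with earlier results of these data known, so its lean is a description only. Cited2, a transcriptional cofactor, fell by 0.52 ± 0.055 in GM and 0.80 ± 0.055 in DM (adjusted p = 1.09e-08 and 3.73e-13, edgeR). Ccng2, an unusual cyclin of quiescent cells, fell by 0.49 ± 0.056 and 0.39 ± 0.055. Bcl2l11, the pro-apoptotic Bim, fell by 0.52 ± 0.069 in GM and by 0.32 in DM, and Gabarapl1, an autophagosome protein, by 0.30 in GM and 0.55 ± 0.047 in DM. Exons on the opposite strand cover 28.3% of Gabarapl1. Ctsl, named after its values were seen, had higher means with AA, at 505.5 CPM (PBS) and 571.4 (AA) in GM. In DM its means were 410 CPM (PBS) and 468.3 (AA), and exons on the opposite strand cover 26.8% of Ctsl. Without GM-PBS library 2 2 rose in GM, and without DM-AA library 3 0 rose in DM.

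Txnip, a thioredoxin-binding protein that FoxO and glucose-sensing factors drive, had the largest rise of the 4 genes that were higher with AA in GM. It rose there by 0.98 ± 0.12 (adjusted p = 3.03e-07), its change in DM was -0.02 (adjusted p = 0.84), and the effects differed by -1.0 ± 0.14 (adjusted p = 1.46e-05, edgeR). Exons on the opposite strand cover 19.4% of it. Between the media with PBS, 15 of the 24 genes were higher in DM and 5 lower (median 0.32, against 0.00709), beside 27.0% and 27.4% of all tested genes. Sesn1 and Sesn3, sestrins that dampen mTORC1, rose in DM by 1.63 ± 0.063 and 2.04 ± 0.11 (adjusted p = 5.81e-21 and 1.33e-17), and Bnip3, a mitophagy receptor, fell by 1.49 ± 0.082 (adjusted p = 7.42e-17, edgeR), with 22.3% of it covered by exons on the opposite strand.

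Genes of the glucocorticoid receptor and its known targets, which act beside FoxO on Trim63 and Fbxo32, leaned lower too. Of 17 genes, 15 were tested: 10 fell and 1 rose in GM (median -0.25), and 12 fell and 1 rose in DM (median -0.39), and 10 of the 15 fell in both, beside the 788 of 12230 over all tested genes. In GM 11.0% of all tested genes fell and 9.76% rose, and in DM 13.8% fell and 12.6% rose. This list, too, was chosen with earlier results of these data known. Without GM-PBS library 2 5 fell in GM, and without GM-AA library 3 6. Cebpd, a C/EBP transcription factor, fell by 0.65 ± 0.059 in GM and by 1.52 ± 0.095 in DM (adjusted p = 4.24e-10 and 4.89e-14), and the effects differed by -0.87 ± 0.11 (adjusted p = 6.8e-06, edgeR). Exons on the opposite strand cover 15.0% of Cebpd. Errfi1, an inhibitor of EGF receptor signalling, fell by 0.72 ± 0.050 and 0.62 ± 0.050, and Sgk1, a kinase that phosphorylates FoxO proteins, by 0.61 ± 0.085 in GM and 0.46 in DM.

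The gene of the receptor itself, Nr3c1, fell by 0.36 ± 0.047 in DM (adjusted p = 4.1e-07) and by 0.13 in GM (adjusted p = 0.0461, edgeR). The exception was Tsc22d3 (GILZ), a textbook glucocorticoid target, which rose by 0.34 in GM and 0.37 in DM (adjusted p = 0.000203 and 7.28e-06, edgeR); it was named as the only gene of the list that rose, after its values were seen.

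**Figure D5:**
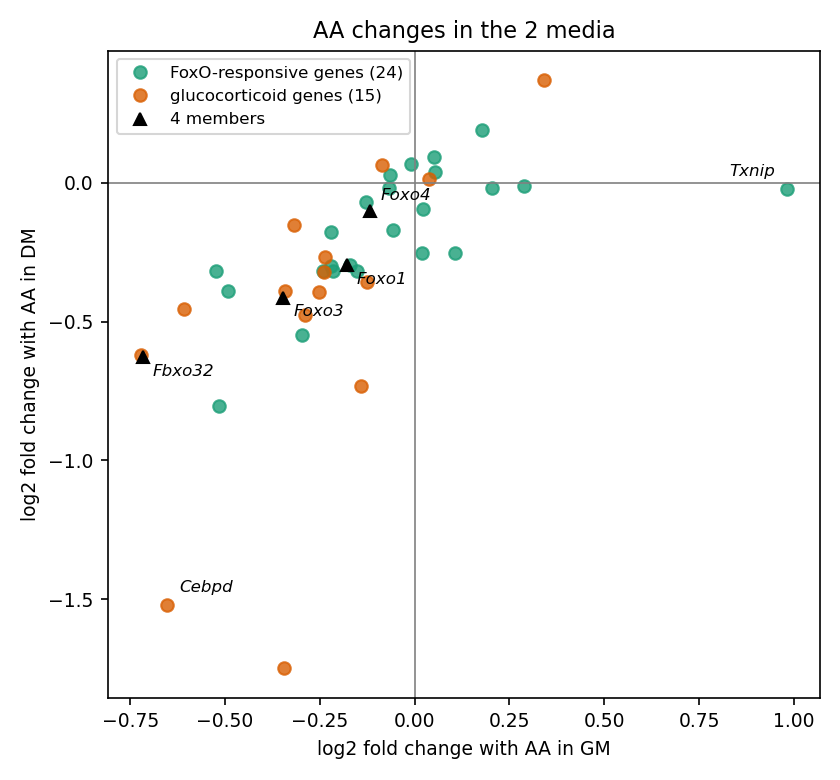
Log2 fold change with AA in GM (horizontal axis) against that in DM (vertical axis) for 24 FoxO-responsive genes, 15 genes of the glucocorticoid receptor and its targets, and 4 members; each point is a gene. Fbxo32, Foxo1 and Foxo3 lie in the lower left with most of both lists, Txnip stands at 0.98 in GM and -0.02 in DM, and Cebpd at -0.65 and -1.52.

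Upstream of the FoxO proteins, genes of insulin and Akt signalling moved both ways. Of 22, all tested, 4 rose and 4 fell in GM, beside 9.76% and 11.0% of all tested genes. In DM 3 rose and 5 fell, beside 12.6% and 13.8%. Leaving out GM-AA library 1 left 2 lower in GM, and leaving out DM-PBS library 1 3 lower in DM. Irs1, the insulin receptor substrate that couples the receptor to PI3 kinase, rose by 0.44 ± 0.049 in GM and 0.33 ± 0.047 in DM (adjusted p = 3.4e-08 and 1.47e-06, edgeR), with 30.9% of it covered by exons on the opposite strand. Igf1r, the IGF-1 receptor, fell by 0.25 ± 0.049 in DM (adjusted p = 0.000193) and by 0.19 in GM (adjusted p = 0.0053, edgeR). The kinase genes Akt1 and Akt2 did not pass in either medium.

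Of 17 genes whose proteins modify FoxO factors or bind them, 5 were higher and 2 lower in GM. The shares over all tested genes were 9.76% and 11.0%. In DM 3 were higher and 2 lower, beside 12.6% and 13.8%. Without GM-AA library 1 or 3, 3 were higher in GM, and without GM-PBS library 1 none (0) was lower. In DM only 1 was lower on leaving out any of 5 libraries, with DESeq2 or its size factors, or with the library sizes behind the RPKM. The same count came with the replicate number as a block and after removal of the GC and length trend. Sirt2, a deacetylase of FoxO proteins, rose in GM by 0.34 ± 0.060 (adjusted p = 9.4e-05), its change in DM was -0.12, and the effects differed by -0.45 ± 0.089 (adjusted p = 0.00118, edgeR). Skp2 and Cdk2, a ligase and a kinase that act on Foxo1, rose in DM by 0.38 ± 0.070 and 0.33 ± 0.064 and did not pass in GM, and for both the effects differed (0.39 ± 0.096 and 0.43 ± 0.086, adjusted p = 0.00956 and 0.00132, edgeR). Crebbp, an acetyltransferase of FoxO proteins, fell in both, by 0.22 ± 0.060 and 0.34 ± 0.062.

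Signals that trigger atrophy, and their receptors, leaned lower, in a list likewise chosen with earlier results of these data known. Of 14 tested, 6 fell and 1 rose in GM, beside 11.0% and 9.76% of all tested genes. In DM 7 fell and 0 rose, beside 13.8% and 12.6%. In both media 5 of the 14 were lower, again beside 788 of 12230. The gene that rose, Acvr2a, did not pass with any of 5 libraries of GM left out in turn. Nor did it pass with DESeq2, with the replicate number as a block, or after removal of the GC and length trend. Smad3, which carries myostatin and activin signals, fell by 0.45 ± 0.051 in GM and 0.20 ± 0.045 in DM (adjusted p = 4.48e-08 and 0.000837, edgeR). Nfkb1 fell by 0.27 ± 0.052 and 0.33 ± 0.052 (adjusted p = 0.000255 and 8.84e-06, edgeR). Tnfrsf12a, the TWEAK receptor, fell by 0.36 ± 0.058 in DM and by 0.19 in GM.

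No other muscle ligase on the list fell as far as Fbxo32. Of 16 tested, 3 rose and 2 fell in GM, beside 9.76% and 11.0% of all tested genes. In DM 1 rose and 3 fell, beside 12.6% and 13.8%. The GM calls on this list rest on few libraries, since leaving out any 1 GM library left 0 or 1 higher and 0 or 1 lower. DESeq2 called 1 each way in GM. Fbxo31 and Fbxo21, F-box proteins as Fbxo32 is, fell in both media, by 0.30 ± 0.10 and 0.19 ± 0.068 in GM and by 0.34 ± 0.096 and 0.23 ± 0.065 in DM (adjusted p = 0.035, 0.0395, 0.00823 and 0.00686, edgeR). Their GM calls were lost with DESeq2 (adjusted p = 0.0809 and 0.108) and after removal of the GC and length trend (adjusted p = 0.109 and 0.0646, edgeR). In DM Fbxo31 lost its call without DM-PBS library 1, and Fbxo21 without DM-AA library 3. Trim55 (MuRF2), a relative of Trim63, rose in GM by 0.37 ± 0.12 (adjusted p = 0.0291, edgeR), a call lost on leaving out the first or second library of either group, and its change in DM was -0.10. Trim54 (MuRF3) did not pass in either medium. Asb2 rose in DM by 1.41 ± 0.29 (adjusted p = 0.000294), and its change in GM was 0.06 (adjusted p = 0.933, edgeR).

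Of 17 ubiquitin and proteasome genes tested, 1 rose and 2 fell in GM, near the 9.76% and 11.0% of all tested genes. In DM 1 rose and 0 fell, beside 12.6% and 13.8%. The largest called change was that of Psmb3, a core proteasome subunit, at -0.27 ± 0.078 in GM (adjusted p = 0.0116); in DM it was -0.12 (adjusted p = 0.258, edgeR). The only call in DM, Usp14 (0.21 ± 0.063, with 26.0% of it covered by exons on the opposite strand), was lost without DM-AA library 3 or DM-PBS library 1 and after removal of the GC and length trend (0.12, adjusted p = 0.131, edgeR), and each GM call was lost without at least 1 library.

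Transcripts of the ligases' known substrates moved apart. Of 15 tested, 3 rose and 5 fell in GM, beside 9.76% and 11.0% of all tested genes. In DM 9 rose and 5 fell, beside 12.6% and 13.8%. Without GM-AA library 1, 5 rose in GM. The genes that rose most in DM encode sarcomere proteins: Mylpf by 1.84 ± 0.21, Myh3 by 1.53 ± 0.17 and Acta1 by 1.51 ± 0.12 (adjusted p = 4.22e-08, 2.28e-08 and 1.18e-11, edgeR), which are also genes of differentiating myocytes, whose summed marker level was higher with AA. Acta1 has near-identical relatives among the actin genes, so its reads may be split or shared. Of the substrates of Fbxo32, Myod1 fell with AA in GM by 0.34 ± 0.049 (adjusted p = 3.52e-06, edgeR) and changed by 0.06 in DM (adjusted p = 0.425). Ppp3ca, the calcineurin catalytic subunit, fell by 0.38 ± 0.077 and 0.57 ± 0.074, and Eif3f by 0.33 and 0.39. Protein levels were not measured, so these values say nothing on degradation.

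Last, the tested genes whose log2 CPM most resembled each member's over the 12 libraries were found, among 8062 genes with at least 5 RPKM in a group. All pairs share the same libraries, depth and group structure, so Pearson's r is given as a measure of likeness only. For Fbxo32 they were Tfdp2 (r = 0.989), Errfi1 (0.985) and Rnf19b (0.981). For Foxo3 they were Tnrc18 (0.972), Sh3pxd2b (0.963) and Irf2bpl (0.954), and for Foxo1 Lox (0.980), Cotl1 (0.977) and Prkg2 (0.977). For Foxo4 they were Acadm (0.988), 2700081O15Rik (0.987) and Hp1bp3 (0.987).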

How the data were processed

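The deposited table held raw read counts per gene and RPKM, with gene lengths, per the file headers. The submitters' processing notes name BWA 0.5.9-r16 as the aligner and mm9 as the genome build; how reads were counted, the strand and the gene models are not stated in the labels or headers. RPKM recomputed from the deposited counts matched the deposited RPKM within 0.0005%. All columns matched a sample (0 unmatched), and libraries were grouped by their titles.

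Counts were tested with edgeR 4.0.16 in R 4.3.3 (filterByExpr by group, TMM, glmQLFit and glmQLFTest, two-sided) as 4 group means over 12 libraries, with 8 residual degrees of freedom, a common biological coefficient of variation of 4.08% and Benjamini-Hochberg adjustment over 12230 genes at 5%. Within groups, chi-square per degree of freedom was 1.46 to 2.94, so no library was a copy of another. The SE is the absolute log2 change divided by the square root of F. Comparisons were AA against PBS in each medium, DM against GM with each treatment, and the difference of the AA effects. Sums of few reads were compared by an exact conditional interval (95%). Alternatives were DESeq2 1.42.0 and its size factors, library sizes behind the RPKM, no filter, only the groups compared, removal of GC and length trends, a replicate block, and leaving out each library. GENCODE lengths for the FoxO levels were added after seeing the data.

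The members and the 10 gene lists and 7 marker lists were chosen with earlier results of these data known. Named were all members and, from each list and comparison, up to 4 genes that passed with the smallest p (not all are printed). Akt1, Akt2, Trim54, Tsc22d3, Acvr2a, Eif3f and Ctsl, Klf6, Klf13, Klf14 and Klf17 by level were added. Likeness took the 3 genes with the highest r for each member with at least 10 reads in every library. GENCODE M21 on GRCm38 gave exon overlaps and the GC content of 99.3% of tested genes, and RefSeq on GRCm38.p6 the promoter windows (250 bases). Code was tested on simulated data.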

Additional observations from a re-analysis of the deposited data

Results flagged for a closer look

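In 17 genes of the 10 gene lists other than the members, marker lists aside, the AA effect differed between the media by the test of the difference (edgeR, DM minus GM, adjusted p under 0.05), and the test passed for no member. A further 6 genes of the marker lists alone also passed (Spp1, Vcam1, Tmem8c, Myog, Myf5 and Lpl). More negative in DM were Txnip (-1.0, from 0.98 in GM to -0.02 in DM), Cebpd (-0.87), Klf9 (-0.589), Sirt2 (-0.452), Map1lc3b (-0.359, from 0.11 to -0.25), Klf5 (-0.317), Cited2 (-0.288), Gabarapl1 (-0.252), Stat3 (-0.236) and Nr3c1 (-0.232). More positive in DM were Mylpf (1.20), Acta1 (1.02), Myh3 (0.974), Cdk2 (0.431), Myod1 (0.399), Skp2 (0.392) and Smad3 (0.244). Of the 17 calls, 9 held under all 19 alternatives and 8 were lost under at least 1. Klf5 lost its call under 13, Stat3 under 10 and Nr3c1 under 9, DESeq2 among them for each. Mylpf lost it under 8, Smad3 under 5, Cited2 under 4, Gabarapl1 under 3 and Skp2 under 1, in each case on leaving out a library. Txnip was also the gene of the FoxO-responsive list that differed most between the media with PBS, by 3.34.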

How the results depend on the processing

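For the 5 tested members there were 25 results and 370 values under alternatives: 353 kept their direction and side of the threshold, 7 lost the call, 4 gained it and 6 changed sign. Fbxo32 and Foxo4 kept every call and every lack of a call. Trim63 did so where an adjusted p could be had, but it passed the read filter only through AA libraries, so its kept AA calls add no support. DESeq2 gave no adjusted p for Trim63 in GM or for its difference of effects. With only the groups compared Trim63 missed the read filter, and so had no value, for AA in GM, AA in DM and DM against GM with PBS. The AA change of Foxo1 in GM lost its call with DESeq2 (-0.179, adjusted p = 0.0939) and with only the groups compared (-0.175, adjusted p = 0.0582, edgeR), and leaving out a library gave -0.229 to -0.146. Foxo3 between media with AA passed with the library sizes behind the RPKM (0.196) and with no filter (0.166), and ranged from 0.0668 to 0.24 on leaving out a library; with PBS its range was 0.181 to 0.295. The difference of the AA effects ranged from -0.167 to 0.00673 for Foxo3 and from -0.0595 to 0.105 for Foxo4 on leaving out a library, and the cause of the sign changes was not tested.

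No pairing of the samples by replicate number was detected. Same-numbered libraries correlated at -0.0676 to 0.0823 in their deviations (18 pairs, 0 over 0.1) and others at -0.0763 to 0.0816. This check cannot exclude a pairing, and the labels do not state one. With the replicate block, Fbxo32 changed by -0.717 in GM and -0.628 in DM and Foxo1 by -0.179 in GM (adjusted p = 0.0357, edgeR), and no member's call changed.

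Counts of all genes past the threshold stayed within 1.5 times the reported count in each of 225 values. Of 222 results on other named genes, 35 lost the call under at least 1 alternative, and 143 of 1500 list counts moved by over 1.5 times. Depth limits Trim63 and Klf15: at 1 to 15 and 0 to 2 reads a library, only large changes could be seen.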
